A study of Homo sapiens with 32 samples.

Results

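The long noncoding RNAs followed across the study were *PCA3*, *PCGEM1* and *PART1*, which are known for their expression in prostate, *MALAT1* and *NEAT1*, which stay in the nucleus, and *PVT1*, which is transcribed next to *MYC*. The 6 members were the rows of the deposited tables with these symbols, out of 25498 genes listed, and all 6 passed the filter on low counts that left 16995 genes for testing. The study sequenced polyadenylated RNA from LNCaP, an androgen-sensitive human prostate cancer cell line, in 32 libraries that form 8 groups of 4. The FBS group grew in medium with fetal bovine serum. The CSS group was in medium with charcoal/dextran treated serum, which is depleted of androgens. The other groups were in the same CSS medium and received 100 ng/mL of either EGF, a ligand of the receptor EGFR, or NRG-1, a ligand of the receptors HER3 and HER4, for 5 minutes, 1 hour or 4 hours. All groups are this single cell line, and the labels name replicates 1 and 2 of batch 1 and replicates 1 and 2 of batch 2 in each group. Here the replicates of batch 1 are called numbers 1 and 2, and those of batch 2 numbers 3 and 4.

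Long noncoding RNAs are transcripts without a protein product, and many act where they are made. *MALAT1* gathers in nuclear speckles, which store splicing factors, and *NEAT1* is the RNA scaffold of paraspeckles. The 3′ ends of *MALAT1* and of the long *NEAT1* transcript are cut by RNase P and closed by a triple helix of U-rich and A-rich stretches, so they lack the poly(A) tail by which these libraries captured RNA, whereas the short *NEAT1* transcript has such a tail. *PCA3*, an antisense RNA within *PRUNE2*, is measured in urine as a marker of prostate cancer, and *PCGEM1* and *PART1* are prostate RNAs described as androgen responsive. Because the poly(A) tail decides what was sequenced, the levels below are those of the captured molecules, and a change in level cannot be told apart from a change in capture.

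The ends of *MALAT1* and *NEAT1* are shown because they carry the stretches that stand in place of a poly(A) tail. The sequences are from GENCODE v44 transcripts: bases 8378 to 8477 of the 10434-base *MALAT1* transcript, and bases 22644 to 22743, the last ones, of the 22743-base *NEAT1* transcript. Capitals mark the runs of at least 10 bases that both stretches hold.
MALAT1: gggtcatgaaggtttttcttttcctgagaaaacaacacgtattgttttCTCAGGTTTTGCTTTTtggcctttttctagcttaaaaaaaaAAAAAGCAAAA
NEAT1: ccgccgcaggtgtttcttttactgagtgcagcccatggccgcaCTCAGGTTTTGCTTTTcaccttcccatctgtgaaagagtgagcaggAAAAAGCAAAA
Of the 100 bases shown for each RNA, 27 lie in such shared runs, a U-rich run of 16 and an A-rich run of 11 bases at the very end. The *MALAT1* stretch was chosen to end at the last of its 2 copies of the final 11 bases of *NEAT1*. The shared run at the very end was therefore fixed by this choice. The longest unbroken run of A in any GENCODE v44 transcript of the gene was 22 bases in *NEAT1*, 16 in *PART1*, 13 in *MALAT1*, 12 in *PCA3*, 11 in *PVT1* and 9 in *PCGEM1*.

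Promoters are shown for the prostate members, whose levels are set against serum below. They are RefSeq sequences of build GRCh38.p14, with the 50 bases from the annotated start in capitals after 250 bases of upstream sequence. RefSeq promoters were matched for 4 of the 6 members. The windows are chr9:76764186-76764485 for *PCA3*, chr5:60487682-60487981 for *PART1* and chr2:192749595-192749894 for *PCGEM1*, each on the plus strand.
PCA3: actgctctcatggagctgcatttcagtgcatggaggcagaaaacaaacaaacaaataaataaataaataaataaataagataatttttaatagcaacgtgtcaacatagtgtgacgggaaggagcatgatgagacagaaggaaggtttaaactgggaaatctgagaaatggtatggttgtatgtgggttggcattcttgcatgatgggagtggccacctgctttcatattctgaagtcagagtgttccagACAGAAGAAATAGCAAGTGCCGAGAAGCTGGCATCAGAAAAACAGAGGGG
PART1: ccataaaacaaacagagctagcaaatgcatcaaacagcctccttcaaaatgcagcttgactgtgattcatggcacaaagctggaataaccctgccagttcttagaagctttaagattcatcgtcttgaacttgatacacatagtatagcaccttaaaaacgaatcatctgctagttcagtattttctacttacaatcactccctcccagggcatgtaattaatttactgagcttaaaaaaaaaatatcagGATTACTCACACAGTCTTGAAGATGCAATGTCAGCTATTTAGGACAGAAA
PCGEM1: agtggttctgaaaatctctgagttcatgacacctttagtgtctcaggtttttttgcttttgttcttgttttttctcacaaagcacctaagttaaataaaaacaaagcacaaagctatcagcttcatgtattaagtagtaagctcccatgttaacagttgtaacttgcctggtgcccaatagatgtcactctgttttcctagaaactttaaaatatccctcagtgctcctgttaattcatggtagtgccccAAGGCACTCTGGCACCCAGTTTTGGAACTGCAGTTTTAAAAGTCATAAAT
Letters were searched on both strands. The letters AGAACA, part of steroid hormone response elements, stand in the *PCGEM1* window and in 14.8% of all 35116 RefSeq promoters of this length. The *PCA3* and *PART1* windows hold neither these letters nor any of the others searched. The forkhead letters GTAAACA are in 3.42% of all windows. The TATA box letters TATAAA are in 11.5%. The E-box letters CACGTG are in 7.26%. The AP-1 letters TGACTCA are in 4.95%. No searched motif is contained in another.

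The libraries held between 63822654 and 92401724 counts, with a median of 77866194. The cells carried the LNCaP markers in every library, with *KLK3*, the prostate-specific antigen, between 143 and 2824 TPM (a level scaled to transcript length and library total). Of 12 markers of other cell types, *KRT5* was listed at 0 in 28 libraries, *TP63* in 25, *CD3E* in 29, *PECAM1* in 27, *DCN* in 16 and *PTPRC* in 8. The others were above 0 in every library, with highest values of 2.17 TPM for *KRT14*, 3.10 for *VWF*, 5.00 for *COL1A1*, 1.13 for *COL3A1*, 0.31 for *LUM* and 16.2 for *CD68*. The 12 markers summed to between 6.90 and 20.6 TPM. This sum was 9.26 to 11.4 TPM in CSS, 6.90 to 8.95 in FBS, 17.1 to 20.6 after 4 hours of EGF and 10.4 to 16.0 after 4 hours of NRG-1, with *CD68* at 16.2 TPM or less the largest part, and its part in the differences below was not tested. Of the 7 markers that passed the filter, 1 was called higher and 1 lower than CSS after 4 hours of either ligand. The higher one was *CD68*, 4.09-fold with EGF and 2.61-fold with NRG-1. In FBS 1 was higher, *KRT14* (14.4-fold), and 3 were lower. Exposure to the ligands showed in *EGR1*, an immediate early transcription factor, which rose 1049-fold after 1 hour of EGF and 1077-fold after 1 hour of NRG-1, and in *TXNIP*, which fell 6.51-fold and 3.30-fold.

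Levels between genes were compared in TPM. *NEAT1* had the highest TPM of the members in 32 of 32 libraries, with a median of 131 TPM and a range of 68.4 to 197. *MALAT1* came next in each library with a median of 61.8 TPM, from 31.8 to 101. *PCGEM1* had a median of 7.75 TPM (4.78 to 12.8), *PVT1* of 6.58 (5.24 to 8.72) and *PART1* of 3.63 (2.21 to 6.05). *PCA3* was near the floor, with a median of 0.03 TPM and a highest value of 0.21, or a median of 5 counts per library and 38 at most. The order *NEAT1*, *MALAT1*, *PCGEM1*, *PVT1*, *PART1*, *PCA3* held in 22 libraries, and *PVT1* stood above *PCGEM1* in the other 10. By its mean TPM over the 32 libraries, *NEAT1* was above 95.5% of the genes listed, *MALAT1* above 90.6% and *PCA3* above 36.6%.

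In counts, which do not divide by length, *MALAT1* was above *NEAT1* in all 16 libraries of batch 1, although its TPM was lower in all 32 libraries. The count divided by the TPM gives the length to which each gene was scaled, and relative to *MALAT1* this was 0.415 for *NEAT1*, with values from 0.415 to 0.415 over 32 libraries. The second longest *NEAT1* transcript in GENCODE v44 has 3524 bases, 0.401 of the 8779 bases of *MALAT1* in RefSeq, whereas the long 22743-base transcript is 2.59 times as long. The annotation used for counting is not given in the sources used here. The relative lengths of *PCGEM1* (0.163), *PART1* (0.223) and *PVT1* (0.176) were compared in the same way. In limma tests of this ratio, 5 of 35 member tests against CSS were called at an adjusted *P* value below 0.05, beside 8.88% of all gene tests, and the largest difference was 0.0041 on the log2 scale. These calls lay in FBS, NRG-1 at 1 hour and EGF at 4 hours, where 20.8%, 12.3% and 26.3% of all genes were called.

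Within each gene, levels are given as CPM, read counts scaled to library totals after TMM normalization, and were compared by edgeR with an adjusted *P* value below 0.05 as the call. The plot of CPM in all libraries shows the 6 members side by side.

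**Figure D1:**
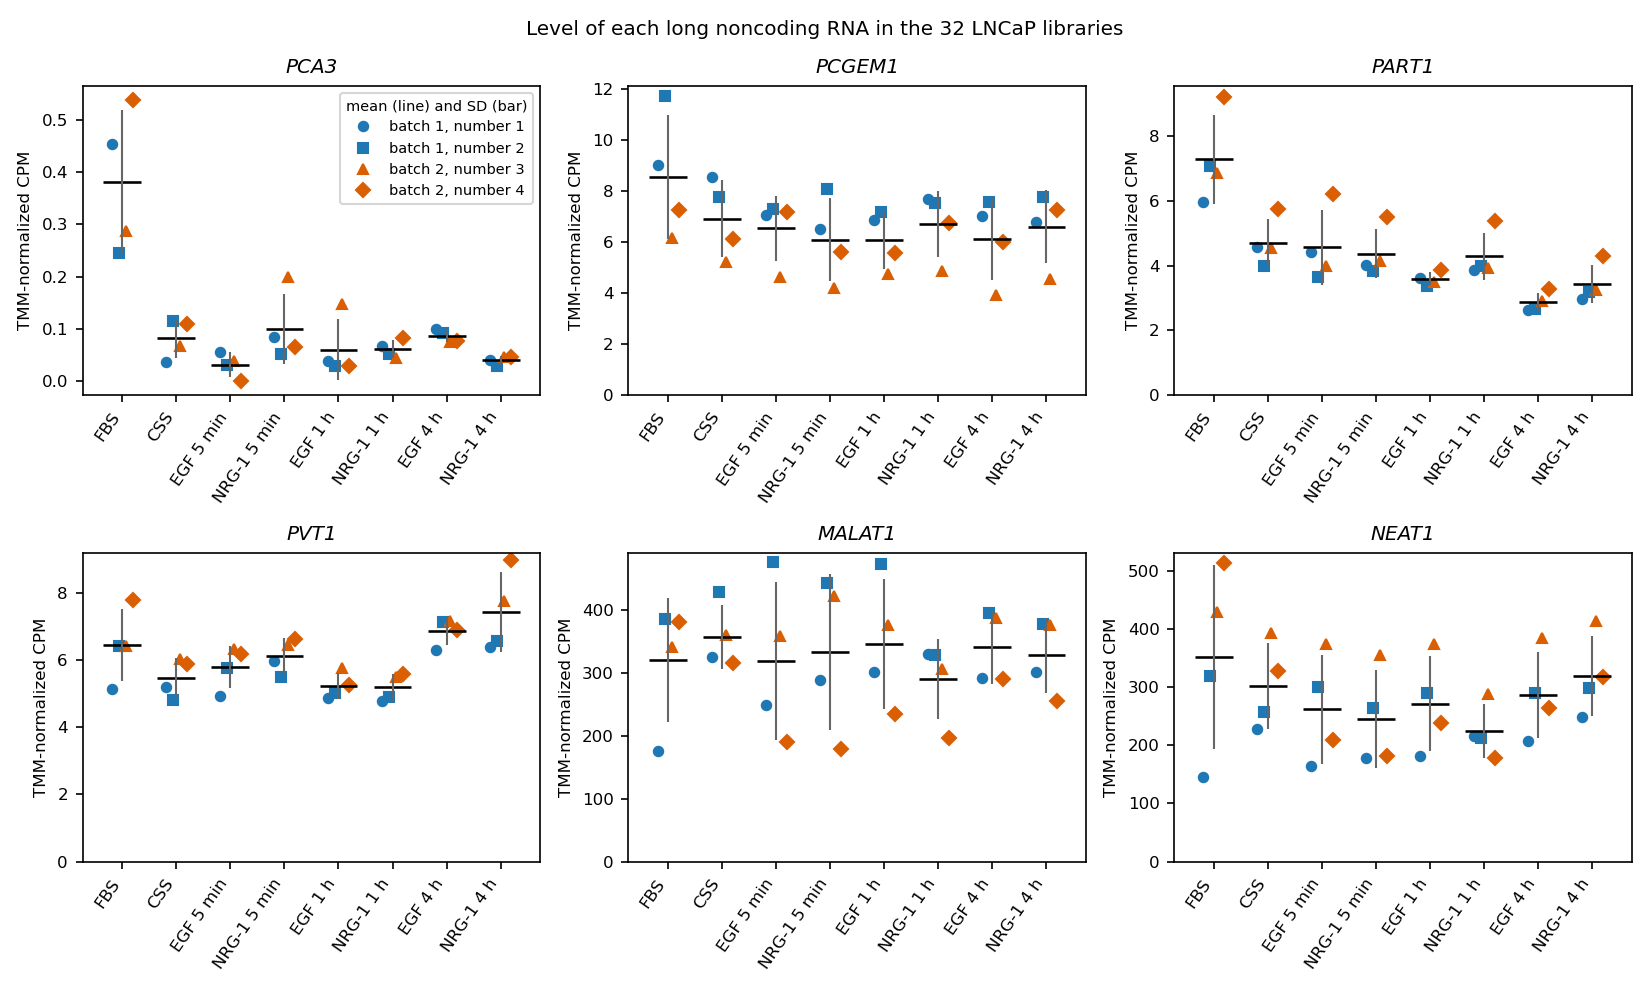
TMM-normalized CPM of each member (vertical axis, from 0) in the 8 groups (horizontal axis), with 1 point per library, marker and colour for number and batch, a line at the mean and a bar for the SD (n = 4). *PCA3* and *PART1* in FBS lie above all CSS libraries, *PVT1* after 4 hours of either ligand lies above all CSS libraries, and number 4 has the highest *PART1* in 8 of 8 groups.

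The serum comparison asked how the RNAs differ between medium with fetal bovine serum and medium with charcoal/dextran treated serum. No group had androgen added to the treated serum. An effect of androgens therefore cannot be told apart from other differences between the sera. *PCA3* and *PART1* were higher in FBS in every library, *PVT1* was slightly higher and *PCGEM1*, *MALAT1* and *NEAT1* were not called. The 3 members called of 6 stand beside 52.7% of all genes tested in this comparison, so a call alone sets none of them apart. Under the stricter rule that also asks for a log2 fold change beyond 1, *PCA3* alone passed, beside 8.71% of genes.

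*PCA3* was counted 38, 17, 23 and 32 times in the FBS libraries, numbered 1 to 4, and 3, 8, 6 and 9 times in CSS. Every FBS library was above every CSS library. In such bulk samples fewer cells expressing a gene and less RNA per cell cannot be told apart. The mean was 0.381 ± 0.138 CPM in FBS and 0.0816 ± 0.0371 in CSS (SD, n = 4 each), a 4.68-fold difference with 2.23 on the log2 scale (SE 0.40, adjusted *P* = 2.87e-05). The ratio of pooled counts, 110 against 26, was 4.70 with an exact 95% interval of 3.04 to 7.51 for counting error only. Within batches the log2 fold change was 2.26 in batch 1 and 2.20 in batch 2, both called.

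*PART1* had 5.98, 7.08, 6.88 and 9.23 CPM in FBS and 4.58, 4.00, 4.54 and 5.75 CPM in CSS. The groups did not overlap. The difference was 1.54-fold, or 0.62 on the log2 scale (SE 0.12, adjusted *P* = 0.000125), and it was 0.60 in batch 1 (adjusted *P* = 0.000384) and 0.65 in batch 2 (adjusted *P* = 0.0797), each with 2 libraries a group.

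*PCGEM1* had 9.04, 11.7, 6.15 and 7.26 CPM in FBS against 8.55, 7.78, 5.21 and 6.13 in CSS. The FBS library was the higher in 4 of 4 same-numbered pairs, but the groups overlapped, and both held lower values in batch 2. The log2 fold change of 0.30 (SE 0.15) missed the threshold with an adjusted *P* of 0.0916, and it passed with the replicate number as a block (0.29, adjusted *P* = 0.00373). Within batches it was 0.34 in batch 1 (adjusted *P* = 0.0281) and 0.24 in batch 2 (adjusted *P* = 0.570). In TPM the means were closer, at 9.20 in FBS and 8.47 in CSS. Over 46 other settings the log2 value for *PCGEM1* ran from 0.08 to 0.36, and 4 of them called it.

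*PVT1* had 5.15, 6.42, 6.41 and 7.78 CPM in FBS and 5.20, 4.80, 6.03 and 5.88 in CSS, and the groups overlapped. The difference of 0.23 on the log2 scale (SE 0.076, adjusted *P* = 0.0133) was lost without FBS number 2 (0.19, adjusted *P* = 0.0596) or FBS number 4 (0.17, adjusted *P* = 0.0861). It was 0.21 in batch 1 (adjusted *P* = 0.157) and 0.25 in batch 2 (adjusted *P* = 0.101), and it also missed the threshold without a batch term (adjusted *P* = 0.108), with the 2 groups alone (0.0678) and without the libraries numbered 4 (0.0624). On the log2(TPM + 1) scale it was 0.02 (adjusted *P* = 0.788 by limma), where the median of the 13141 genes kept by the TPM filter was -0.17. Without that filter the median of 21411 genes was -0.02, and *PVT1* was again at 0.02 (adjusted *P* = 0.867 by limma). *PVT1* was thus not called on the TPM scale.

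*MALAT1* had 177, 386, 341 and 381 CPM in FBS and 325, 429, 360 and 316 in CSS, a log2 fold change of -0.14 (95% interval -0.67 to 0.39, adjusted *P* = 0.690). *NEAT1* had 146, 320, 430 and 513 CPM in FBS and 228, 257, 393 and 328 in CSS, a log2 fold change of 0.19 (95% interval -0.31 to 0.69, adjusted *P* = 0.553). Single libraries of a group differed by up to 2.19-fold in *MALAT1* and 3.52-fold in *NEAT1* within FBS.

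**Figure D2:**
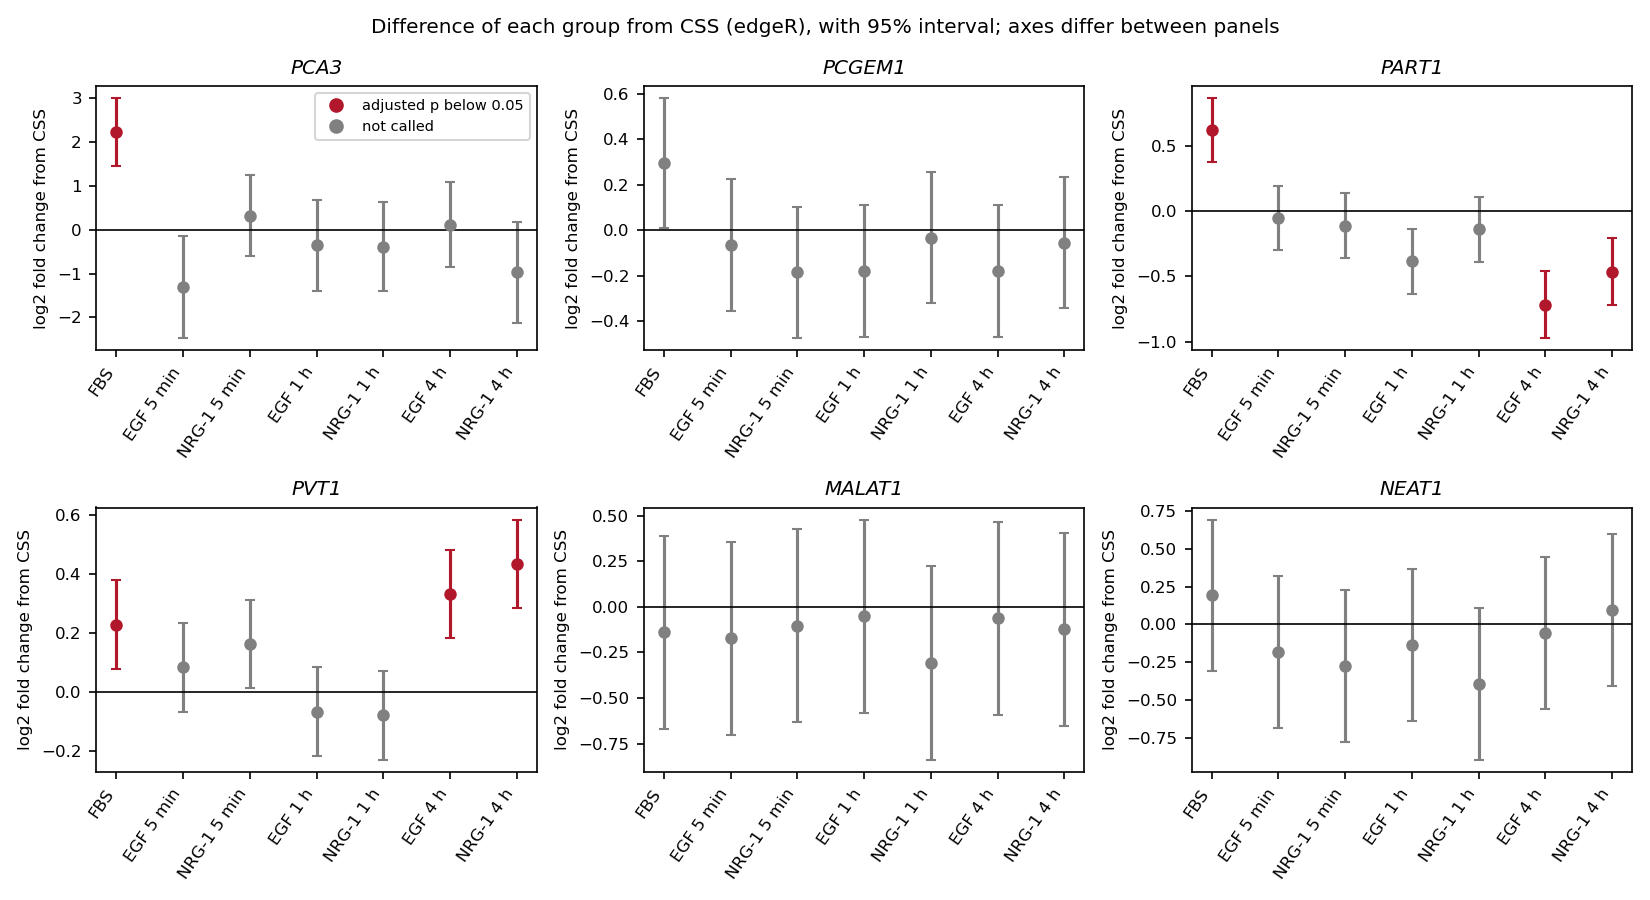
Log2 fold change from CSS (vertical axis, on its own scale in each panel) of each member in the 7 other groups (horizontal axis), from the edgeR fit with group and batch; points are estimates, bars 95% intervals, and red marks an adjusted *P* value below 0.05. *PART1* is above 0 in FBS and below 0 after 4 hours of either ligand, *PVT1* is above 0 in all 3, and the intervals of *MALAT1* and *NEAT1* include 0 throughout.

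The 5-minute groups are the earliest time with ligand. No member was called after EGF or NRG-1, beside 0.00588% and 0% of genes, that is 1 gene and 0 genes in edgeR, with 251 and 324 genes at an unadjusted *P* below 0.05. At that unadjusted level there was 1 member in each, *PCA3* for EGF and *PVT1* for NRG-1, and DESeq2 called 0 members in both. *PCA3* was counted 4, 3, 3 and 0 times after EGF and 7, 4, 17 and 5 times after NRG-1. The pooled ratio to CSS was 0.390 after EGF (exact 95% interval 0.168 to 0.835, counting error only) and 1.27 after NRG-1 (0.738 to 2.21), and the library without a count allows up to 3 counts. The edgeR log2 fold change after EGF, -1.30, had an adjusted *P* of 1.

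After 1 hour no member was called for EGF or NRG-1 by edgeR, beside 9.51% and 6.73% of genes. *PART1* had 3.63, 3.38, 3.50 and 3.86 CPM after EGF, each below all CSS libraries. Its log2 fold change of -0.39 (SE 0.13) had an adjusted *P* of 0.0572. With the replicate number as a block it was called (-0.38, adjusted *P* = 0.000619), and DESeq2 called it too (adjusted *P* = 0.0439). It also passed without any 1 of 5 libraries (CSS number 3, EGF 5 minutes numbers 3 or 4, NRG-1 5 minutes number 4, or NRG-1 1 hour number 3), with adjusted *P* values from 0.0297 to 0.0491. After 1 hour of NRG-1, *PART1* had 3.86, 3.99, 3.92 and 5.38 CPM, a log2 fold change of -0.14 with an adjusted *P* of 0.666, and DESeq2 called 0 members there. For that comparison 0 members reached an unadjusted *P* below 0.05.

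After 4 hours *PART1* was lower and *PVT1* higher with either ligand, and no other member was called. Both comparisons called 2 of 6 members, beside 49.2% of genes for EGF and 42.6% for NRG-1. No member passed the stricter rule, beside 9.56% and 7.41% of genes. The comparisons share the CSS libraries, so they are not independent of each other.

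*PART1* fell to 2.62, 2.68, 2.90 and 3.28 CPM after 4 hours of EGF, with every library below every CSS library. The fall was 1.64-fold, or -0.72 on the log2 scale (SE 0.13, adjusted *P* = 3.66e-05). After 4 hours of NRG-1 it had 2.98, 3.19, 3.25 and 4.29 CPM, of which number 4 lay within the range of CSS. The log2 fold change there was -0.46 (SE 0.13, adjusted *P* = 0.00457), and *PART1* was lower in 4 of 4 same-numbered pairs. Within batch 1 the log2 fold change was -0.70 for EGF and -0.48 for NRG-1, and within batch 2 it was -0.71 (adjusted *P* = 0.0761) and -0.43 (adjusted *P* = 0.329).

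*PVT1* rose to 6.28, 7.13, 7.15 and 6.89 CPM after 4 hours of EGF and to 6.39, 6.58, 7.76 and 8.99 after 4 hours of NRG-1. All 8 libraries were above all CSS libraries, of which the highest had 6.03 CPM. The log2 fold change was 0.33 for EGF (SE 0.076, adjusted *P* = 0.000556) and 0.43 for NRG-1 (SE 0.076, adjusted *P* = 2.74e-05). In batch 1 it was 0.42 and 0.37, and in batch 2 it was 0.26 (adjusted *P* = 0.109) and 0.50 (adjusted *P* = 0.00759).

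*PCGEM1*, *PCA3*, *MALAT1* and *NEAT1* did not pass at 4 hours in the edgeR test of all libraries. *PCGEM1* ranged from 3.94 to 7.56 CPM after EGF and from 4.55 to 7.78 after NRG-1, with log2 fold changes of -0.18 (95% interval -0.47 to 0.11) and -0.05 (-0.34 to 0.24). With EGF it was lower in 4 of 4 same-numbered pairs, and it was called by limma on log2(TPM + 1) (-0.23, adjusted *P* = 0.0440) and by edgeR without the libraries numbered 4 (-0.24, adjusted *P* = 0.0301). In that limma test the median of all genes tested was -0.07. *PCA3* was counted 26 times in all after EGF, as often as in CSS, and 11 times after NRG-1, for a pooled ratio of 0.497 (exact 95% interval 0.222 to 1.04). *MALAT1* ranged from 291 to 396 CPM after EGF and from 255 to 378 after NRG-1, and *NEAT1* from 207 to 385 and from 249 to 413. Their log2 fold changes lay between -0.12 and 0.10.

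Set directly against each other, EGF and NRG-1 differed in 0 of 6 members at 5 minutes, 1 hour and 4 hours by edgeR and by DESeq2, beside 0%, 1.06% and 1.66% of genes. At an unadjusted *P* below 0.05 there was 1 member at 5 minutes, *PCA3*, and 0 at the later times, and 184 genes at 5 minutes. For *PART1* at 4 hours the log2 difference, EGF minus NRG-1, was -0.25 (95% interval -0.52 to 0.01), and for *PVT1* it was -0.10 (-0.25 to 0.05).

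From 1 to 4 hours, *PVT1* rose with both ligands. The log2 fold change was 0.40 for EGF (SE 0.076, adjusted *P* = 8.41e-05) and 0.51 for NRG-1 (SE 0.076, adjusted *P* = 2.92e-06), with no overlap between the times. *PVT1* at 1 hour lay between 4.77 and 5.76 CPM over both ligands. *PART1* fell further from 1 to 4 hours of EGF, by 0.33 on the log2 scale (SE 0.13, adjusted *P* = 0.0429), which was lost without any 1 of 7 libraries (EGF 1 hour numbers 1, 2 and 4, EGF 4 hours numbers 1, 2 and 3, or NRG-1 4 hours number 4), with adjusted *P* values from 0.0503 to 0.126. With NRG-1 its log2 fold change was -0.32 (SE 0.13) and its adjusted *P* of 0.0500005 was just above the threshold, which it passed without any 1 of 11 libraries (FBS 1 or 3, CSS 3 or 4, EGF 5 minutes 2, 3 or 4, NRG-1 5 minutes 3 or 4, NRG-1 1 hour 3, or NRG-1 4 hours 4), with adjusted *P* values from 0.0196 to 0.0498. In all, 2 of 6 members were called for EGF beside 44.0% of genes, and 1 of 6 for NRG-1 beside 37.5%. With the replicate block, *PART1* (adjusted *P* = 0.00124) and *NEAT1* (log2 fold change 0.49, adjusted *P* = 0.0251) were called as well for NRG-1. *NEAT1* had 217, 213, 289 and 178 CPM at 1 hour of NRG-1 and 249, 298, 413 and 317 at 4 hours, and each number was higher at 4 hours.

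Ordered by mean CPM, *PART1* ran from FBS (7.29 ± 1.37, SD, n = 4) through CSS (4.72 ± 0.74) to EGF at 4 hours (2.87 ± 0.30), and neighbouring groups in this order overlapped except FBS and CSS, and NRG-1 and EGF at 1 hour. The second of these breaks is close to a tie, at 3.862 CPM in the lowest NRG-1 library and 3.86196 in the highest EGF library. EGF and NRG-1 at 1 hour were not called different in *PART1* by edgeR (adjusted *P* = 0.600). *PVT1* was highest after 4 hours of NRG-1 (7.43 ± 1.204) and EGF (6.86 ± 0.40) and lowest after 1 hour of NRG-1 (5.19 ± 0.41), with overlap between all neighbours. For *PCA3* the break lay below FBS, and the other 7 groups overlapped in order. *PCGEM1*, *MALAT1* and *NEAT1* had no break between neighbours.

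*MALAT1* and *NEAT1* varied widely between libraries of the same group. After group and batch were fitted, their residual SD was 0.43 and 0.41 on the log2 scale, beside a median of 0.11 for genes of similar level (within 0.5 on the log2 scale), and was above that of 99.8% and 99.7% of those genes. *PVT1* had 0.10, *PART1* 0.18, *PCGEM1* 0.22 and *PCA3*, at its low counts, 0.54. These 4 were above 20.2%, 70.7%, 89.5% and 51.3% of genes of their own level.

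The 2 nuclear RNAs rose and fell together. Across the 32 libraries their residuals had a Pearson r of 0.975 and a Spearman rho of 0.955, as a description of libraries that share batches and numbers. In batch 1, number 2 exceeded number 1 in *MALAT1* in 7 of 8 groups, by up to 2.19-fold in FBS. In batch 2, number 3 exceeded number 4 in 7 of 8 groups, by up to 2.36-fold after 5 minutes of NRG-1. *MALAT1* was highest in number 2 in 7 groups and lowest in number 4 in 7 groups, while *NEAT1* was highest in number 3 in 7 groups and lowest in number 1 in 7. With the number in place of the batch, the residual SD of both fell to 0.29.

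**Figure D3:**
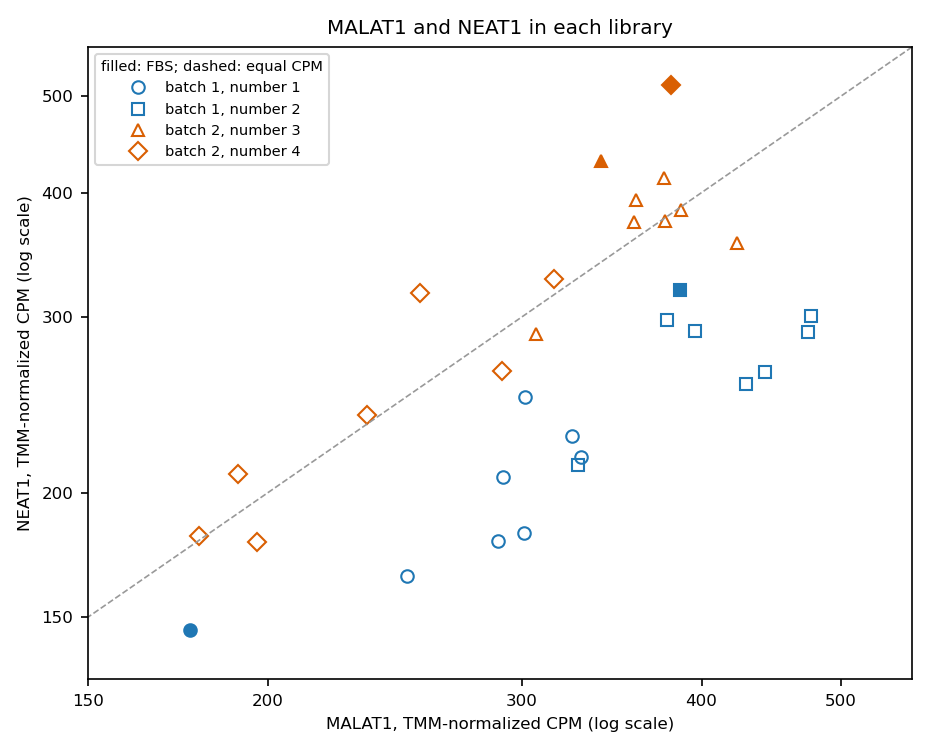
*NEAT1* (vertical) against *MALAT1* (horizontal) in TMM-normalized CPM, both on log scales, with 1 point per library, marker and colour for number and batch, filled points for FBS and a dashed line at equal CPM. Within each batch the points run along a line, and the batch 2 points lie higher, at *NEAT1* to *MALAT1* ratios of 0.842 to 1.35 against 0.597 to 0.828 in batch 1.

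The number also ordered the prostate members. *PCGEM1* was lowest in number 3 in 8 of 8 groups and highest in number 2 in 6, and *PART1* was highest in number 4 in 8 of 8. The residuals of *PCGEM1* and *PART1* had r = 0.781 over the 32 libraries, and those of *PART1* and *MALAT1* -0.497. Between batches, 4 of 6 members were called, beside 55.6% of genes. *NEAT1* (log2 difference of batch 2 from batch 1 0.44, adjusted *P* = 0.00553), *PART1* (0.25) and *PVT1* (0.22) were higher in batch 2, and *PCGEM1* (-0.46, adjusted *P* = 6.65e-06) was lower.

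The ratio of *NEAT1* to *MALAT1* CPM was also taken within each library. In FBS it was 0.825 and 0.828 in batch 1, and 1.26 and 1.35 in batch 2. In CSS it was 0.599 and 0.702 in batch 1, and 1.04 and 1.09 in batch 2. After 4 hours of NRG-1 it was 0.788 and 0.827 in batch 1, and 1.10 and 1.24 in batch 2, so that each was above the CSS libraries of its batch. Averaged over the batches, the log2 ratio was above that of CSS by 0.32 in FBS and 0.22 after 4 hours of NRG-1. Both had a two-sided *P* of 0.0556 in an exact permutation test within batches, the smallest that its 36 arrangements allow, or 0.194 adjusted over the 7 groups compared. After 4 hours of EGF the average difference from CSS was -0.0019, with 0.16 in batch 1 and -0.16 in batch 2. The other 4 groups lay between -0.15 and -0.0012. This ratio was chosen after the data were seen.

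**Figure D4:**
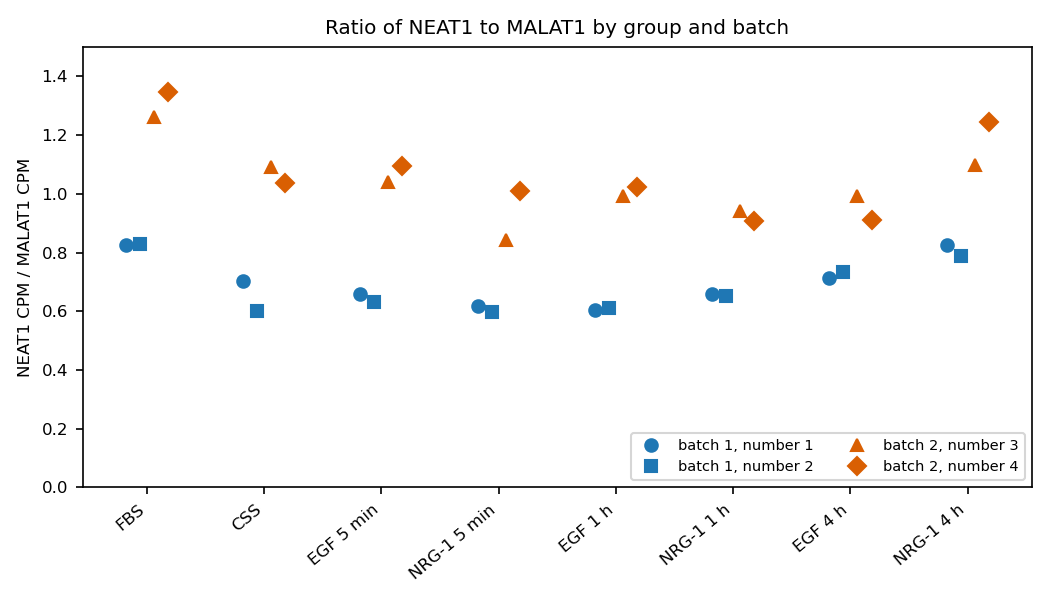
Ratio of *NEAT1* to *MALAT1* CPM (vertical axis, from 0) in each library of the 8 groups (horizontal axis), with marker and colour for number and batch. All batch 2 libraries lie above all batch 1 libraries, at 0.842 or more against 0.828 or less, and in batch 1 NRG-1 at 4 hours reaches 0.827, next to FBS at 0.828.

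Neighbours on the chromosome were compared with the members they lie next to. *MYC*, a transcription factor that drives growth, rose after 4 hours of EGF (log2 fold change 0.73, SE 0.052, adjusted *P* = 1.72e-12) and of NRG-1 (0.61, adjusted *P* = 1.04e-10), as *PVT1* did by 0.33 and 0.43. After 1 hour of EGF *MYC* fell by 0.31 (adjusted *P* = 7.70e-05) while *PVT1* had -0.07, and in FBS *MYC* had 0.01 (adjusted *P* = 0.884). *PRUNE2*, in which *PCA3* lies on the other strand, fell by 0.68 in FBS (adjusted *P* = 0.000128), where *PCA3* rose. The libraries are strand specific and were counted in stranded mode. *PRUNE2* had a mean of 353 CPM in CSS beside 0.0816 for *PCA3*. Whether any *PRUNE2* reads were counted for *PCA3* was not tested.

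*PDE4D*, a cyclic AMP phosphodiesterase next to *PART1*, fell by 1.03 in FBS (adjusted *P* = 3.23e-10), where *PART1* rose. After 4 hours *PDE4D* had -0.14 with EGF (adjusted *P* = 0.212) and -0.23 with NRG-1 (adjusted *P* = 0.0424), where *PART1* was lower as well. *FRMD8*, beside *NEAT1* and *MALAT1*, rose after 4 hours of EGF, by 0.69 (adjusted *P* = 1.30e-07), and of NRG-1, by 0.48 (adjusted *P* = 4.05e-05), where *NEAT1* and *MALAT1* were not called. Of the 10 host and neighbouring genes listed, 7 rose and 0 fell after 4 hours of EGF, 6 rose and 1 fell after NRG-1, and 1 rose and 4 fell in FBS. Over all genes 24.6% were higher and 24.6% lower after EGF, 21.6% and 21.0% after NRG-1, and 26.0% and 26.8% in FBS. The largest changes in this list were those of *DEPDC1B* in FBS (1.72) and of *EHBP1L1* after EGF (1.08) and NRG-1 (0.95).

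Among 17 other prostate long noncoding RNAs tested, 7 were higher and 3 lower in FBS, with a median log2 fold change of 0.03 beside -0.01 for all genes. *LINC00844* had the largest difference, from 0.0835 ± 0.0547 to 1.63 ± 0.44 CPM, or 4.25 on the log2 scale (SE 0.36, adjusted *P* = 6.45e-11). After 4 hours 2 were higher and 4 lower with EGF and 2 higher and 3 lower with NRG-1, where *TMPO-AS1* had the largest difference with -0.83 and -0.75. Of 26 widely expressed long noncoding RNAs, 9 were higher and 4 lower in FBS, 8 and 2 after EGF, and 9 and 1 after NRG-1. *LINC00152* had the largest difference in FBS (1.03) and after NRG-1 (1.43), and *LINC00342* after EGF (1.65). The shares over all genes called higher and lower were 26.0% and 26.8% in FBS, 24.6% and 24.6% after EGF, and 21.6% and 21.0% after NRG-1.

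Genes for proteins of the nuclear bodies in which *NEAT1* and *MALAT1* reside were counted beside all genes, of which 26.0% were higher and 26.8% lower in FBS, 24.6% and 24.6% after 4 hours of EGF, and 21.6% and 21.0% after NRG-1. Of 26 paraspeckle proteins, 11 were higher and 2 lower in FBS, and 12 higher and 3 lower after 4 hours of EGF and likewise after NRG-1. The largest difference was a fall of *ZC3H6* in all 3 comparisons, by 0.58, 0.95 and 0.82. Of 20 nuclear speckle proteins, 11 were higher and 2 lower in FBS, and 9 higher and 1 lower after either ligand at 4 hours. The splicing factor *SRSF7* rose by 0.83 in FBS, and *TRA2B* by 0.71 and 0.60 after EGF and NRG-1. The medians of this list were 0.22, 0.18 and 0.16, beside -0.01, -0.02 and -0.01 for all genes.

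Androgen-responsive genes were counted in the same comparisons. Of 24 tested, 19 were higher and 5 lower in FBS, with a median log2 fold change of 1.27, and *KLK2*, a prostate kallikrein, was 15.8-fold higher. After 4 hours of EGF 5 were higher and 11 lower, with the largest difference in *OPRK1* (-2.03), and after NRG-1 3 were higher and 11 lower. Beside these stand 26.0% of all genes higher and 26.8% lower in FBS, 24.6% and 24.6% after EGF, and 21.6% and 21.0% after NRG-1.

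By likeness over the 8 batch-centred group means, taken over the 11948 genes of sufficient level (mean log2 CPM of 1 or more), *PART1* was followed most closely by *LIAS* (r = 0.995), *OSGEPL1* (0.995) and *GPX8* (0.993). *PCGEM1* was followed by *C12orf73* (0.992), *NME5* (0.990) and *VBP1* (0.988), and *PVT1* by *SP6* (0.975), *AP4E1* (0.972) and *SDC1* (0.968). *PCA3*, whose group means rest on few counts, had *MINA* (0.942), *ASAH2* (0.934) and *MARCH3* (0.931). *MALAT1* had *PLEKHM1P* (0.931), *NRD1* (0.917) and *TP73-AS1* (0.890), and *NEAT1* had *LOC100507373* (0.961), *SLC25A27* (0.936) and *ATP6V1G2-DDX39B* (0.927). With 8 points each, these values are descriptions. *LIAS*, for example, went from 26.2 CPM in FBS to 20.5 in CSS and 16.5 after 4 hours of EGF.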

How the data were processed

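LNCaP libraries were made by poly(A) capture with strand-specific sequencing. Per the labels and the methods of the study, the authors trimmed reads with Trimmomatic 0.36 and estimated gene values with RSEM around STAR 2.7.0f, with hg19 named as the build. The authors deposited expected counts per gene, not normalized, and TPM values, scaled for length and library total. Of the expected counts 11.2% were not whole, and all were rounded.

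Genes with at least 5 counts in 3 libraries were tested in edgeR 4.0.16 (R 4.3.3, quasi-likelihood, TMM, group and batch terms, all 32 libraries), with Benjamini-Hochberg adjustment over 16995 genes in each comparison. Intervals of 95% are normal approximations from the SE. DESeq2 1.42.0 and limma 3.58.1 on log2(TPM + 1) were alternatives. The ratio of counts to TPM was tested by limma in 11484 genes with at least 50 counts and TPM of at least 1 in every library. The scripts were tested on simulated data.

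Replicate numbers were used to pair the libraries, and the labels give shared batches but no pairing by number. In all 112 same-numbered pairs the deviations from group means correlated, with r from 0.133 to 0.571, which a shared batch alone can give. With the batch removed, r ran from -0.155 to 0.371 and was above 0.1 in 35 of 112 pairs. No 2 libraries of a group agreed within sampling noise (chi-square per degree of freedom at least 6.50). The labels call the libraries biological replicates without naming separate cultures.

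Besides the members, the genes named were the neighbours *PRUNE2*, *MYC*, *PDE4D* and *FRMD8*, the 3 genes most like each member, the called gene of each list with the largest change in FBS and at 4 hours, and *EGR1* and *TXNIP*. A few genes that this rule names are not reported here. The members and lists were chosen with earlier results of these data known.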

Additional observations from a re-analysis of the deposited data

Results flagged for a closer look

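Of 48 sets of 4 libraries (6 members in 8 groups), 4 held a library that lay far from the other 3 by Dixon's test, which chance flags in about 1 of 20 groups. That rate takes the 4 libraries as alike, whereas each set holds 2 libraries from each of 2 batches. *PCA3* was at 0.147 CPM (12 counts) in EGF 1 hour number 3, where the others lay between 0.0282 and 0.0377. *PCGEM1* was at 4.64 CPM in EGF 5 minutes number 3, below others at 7.05 to 7.30. *PART1* was at 5.38 CPM in NRG-1 1 hour number 4, above others at 3.86 to 3.99. *MALAT1* was at 197 CPM in NRG-1 1 hour number 4, below others at 307 to 330, so that the same library was high in *PART1* and low in *MALAT1*. Such an order by number was not particular to the flagged libraries. *PCGEM1* was lowest in number 3 and *PART1* highest in number 4 in 8 of 8 groups, and *MALAT1* was lowest in number 4 in 7 of 8. No difference between EGF and NRG-1 was called for a member at any time.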

How the results depend on the processing

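Over 971 comparisons of a member's call with another setting, 924 kept their call, 23 lost it, 24 gained it and 0 reversed; leaving out 1 library in turn lost 9 and gained 16 of 2304. Over the 12 comparisons the main calls were 5 for *PVT1*, 4 for *PART1*, 1 for *PCA3* and 0 for *PCGEM1*, *MALAT1* and *NEAT1*. Most of the 924 were therefore uncalled tests that stayed uncalled, and every loss fell on the few called tests. Uncalled values changed sign in 42 and 57 cases. *PCA3* had no value under the filter of 10 counts in every library or with TPM of at least 1. Members called in FBS were 1 in batch 2 alone, by limma on TPM with either pseudocount, or with the fold limit; *PVT1* also lost its call there in batch 1 alone, without a batch term, with the 2 groups alone and without number 4. At 1 hour of EGF it was 1 with DESeq2, the 2 groups alone, limma on TPM, or without the libraries numbered 4 (chosen after seeing the data), and 0 or 1 without single libraries. At 4 hours of EGF it was 0 in batch 2 alone or with the fold limit, and 3, with *PCGEM1*, by limma on filtered TPM or without number 4; for NRG-1 it was 1 in batch 2 and 0 with the fold limit. From 1 to 4 hours of EGF it was 1 without a batch term, in batch 2, and 0 with the fold limit, and 1 to 2 without single libraries. For NRG-1 it was 2 with DESeq2, the filter of 10 counts, the 2 groups alone, batch 1, limma on TPM, or without number 4, 0 with the fold limit, and 1 to 2 without single libraries. With the replicate block it was 3 there and 1 at 1 hour of EGF, and the block changed no call beyond the 4 given above. Calls in the gene lists over FBS and 4 hours were 203, and 113 in batch 2 alone. The count to TPM calls were 0 with TPM of at least 5, no batch term or no centring, 8 with the replicate block, and 0 to 6 without single libraries. Both batches have 2 libraries a group, and the cause was not tested. Counting depth limits *PCA3*.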

Other observations

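Other genes followed the shared spread of *MALAT1* and *NEAT1* between libraries; they were chosen after their values were seen. With group and batch fitted, the residuals most like those of *MALAT1*, after *NEAT1*, were those of *USP32P2* (r = 0.969), a pseudogene whose reads may be shared with near-identical copies. *USP32P2* and *FAM118A* had their lowest library in the same number as *MALAT1* in 8 of 8 groups, and *GOLGA8A* and *GOLGA8B*, members of a multicopy golgin family that may likewise share reads, in 7 of 8. Of the 10 genes whose residuals were most like those of *MALAT1* or *NEAT1*, the other 6 did so in 3 or 4 of 8 groups, *NBPF15*, *GABBR1*, *AHSA2* and *AGAP9* in 4 and *HNRNPU-AS1* and *MTRNR2L2* in 3. This count was taken against *MALAT1* only, with which *NEAT1* itself shared its lowest library in 2 of 8 groups. *GOLGA8A* ranged from 43.3 to 108 CPM over the 32 libraries and *HNRNPU-AS1*, an antisense RNA, from 7.41 to 27.3. The summed CPM of *MALAT1* and *NEAT1* had a Pearson r of -0.117 with the library total on the log scale over the 32 libraries and a Spearman rho of -0.036, given as a description.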
